A study of Coturnix japonica with 15 samples.

Results

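The collagen and laminin chain genes of the embryonic quail liver were taken as 1 group: every gene ID whose symbol in the NCBI gene table of Coturnix japonica is that of a collagen chain (COL, a type number, A and a chain number) or of a laminin alpha, beta or gamma chain (LAMA, LAMB or LAMC and a number). The names alone chose the members, and no measured value entered the rule, although earlier results of these data were known. The rule found 50 of the 20308 gene IDs in the count table, 38 collagen genes and 12 laminin genes. Of these, 44 (33 collagens and 11 laminins) had enough counts to be tested between groups, and 5 of the other 6 are described by their counts.

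The RNA came from the left lobe of the liver of Japanese quail embryos at embryonic day 9. A dosing volume of 10 µl was injected into the air cell, and the eggs were then incubated at 37 °C with 60% humidity. The solvent group received DMSO. The other groups received ethinylestradiol, a synthetic oestrogen, at 3.33 or 33.3 µg per g of egg weight. Each group held 5 libraries, and it is not stated that the libraries of a group are separate embryos, so p-values measure the spread between these libraries, which may be technical.

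Collagens are trimers of alpha chains wound into a rod. Fibrillar collagens pack into the fibres that give tissue its strength, type IV collagen forms the sheet of basement membranes, and laminins, trimers of an alpha, a beta and a gamma chain, form the other sheet of that membrane and bind cells through integrins. In the liver, mesenchymal cells such as stellate cells and fibroblasts are a main source of the fibrillar chains, and matrix of this kind lines the sinusoids, the vessels, the bile ducts and the capsule. In bulk liver RNA, a change in the number of the cells that make a chain and a change in RNA per cell cannot be told apart.

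All 50 genes together took 0.315% ± 0.0436 of the estimated counts with solvent, 0.351% ± 0.0603 at 3.33 µg/g and 0.341% ± 0.0656 at 33.3 µg/g (mean ± SD, n = 5 libraries each). Single libraries ran from 0.263% to 0.456%, and the groups overlapped. The collagens alone took 0.260% ± 0.0464, 0.297% ± 0.0584 and 0.281% ± 0.0593. The laminins took 0.0553% ± 0.00602, 0.0547% ± 0.00368 and 0.0600% ± 0.00675 in the same order.

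The libraries held 21715263 to 54591387 estimated counts (median 28086496). Hepatocyte markers (11 of 12 in the table) summed to 136490 to 171217 CPM with solvent, where CPM are counts scaled to a library total of 1e+06. The sums were 73817 to 173513 CPM at 3.33 µg/g and 82351 to 169993 CPM at 33.3 µg/g. Albumin took 9.71% to 13.3% of the counts in 13 libraries, 4.85% in replicate 4 at 3.33 µg/g and 5.87% in replicate 1 at 33.3 µg/g. Replicate 2 at 3.33 µg/g held the highest value of the 15 libraries for 18 of the 50 members. It was also the highest for 10 of 11 muscle markers and for 4 of 10 cartilage markers. The share of all genes highest in this library was not computed. For the tested members among those 18, the change at 3.33 µg/g is also given without this library.

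No collagen or laminin gene passed an adjusted p of 0.05 in any of the 3 comparisons (edgeR quasi-likelihood F-test, Benjamini-Hochberg adjustment over 14508 genes). At 33.3 µg/g against solvent, 0 of 44 members passed where 1.08% of all tested genes did. By unadjusted p under 0.05, 4 of 44 members were called, all higher. Of all tested genes, 5.96% were called higher and 10.8% in either direction. At 3.33 µg/g against solvent, 0 of 44 passed against a background of 1.38%, and 7 had an unadjusted p under 0.05 against a background of 14.6%, 6 of them higher (background 8.2%). Between the doses, 0 members and 0 of all genes (0%) passed. There, 5 members had an unadjusted p under 0.05, all lower at 33.3 µg/g. The background was 2.86% in that direction and 5.55% in either direction. With DESeq2 in place of edgeR, 2 members passed at 33.3 µg/g (COL4A5 and COL4A6), 4 at 3.33 µg/g (those and COL8A2 and LAMA3) and 0 between the doses, while limma-voom passed 0 in all 3 comparisons.

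More fitted changes lay above 0 than below it at 3.33 µg/g. There, 34 of 44 members had a fitted log2 fold change above 0, where 50.8% of all tested genes did, and the members' median was 0.18. Without replicate 2 at 3.33 µg/g, 28 of 44 members were above 0 and the median was 0.07, and without solvent replicate 5 the median was 0.09. At 33.3 µg/g, 25 of 44 members were above 0, where 50% of all genes were, and the median was 0.06. Over the fits that each left out 1 library, that median ran from 0.004 (without solvent replicate 5) to 0.19 (without solvent replicate 3, with 34 of 46 members above 0). It also moved by over 1.5 times without solvent replicate 4 (0.09) and without replicate 2 (0.03), 3 (0.09) or 4 (0.12) at 33.3 µg/g. The comparisons with solvent share the solvent libraries, so the plot of fitted changes shows each gene's 2 values side by side and no relation between them was computed.

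**Figure D1:**
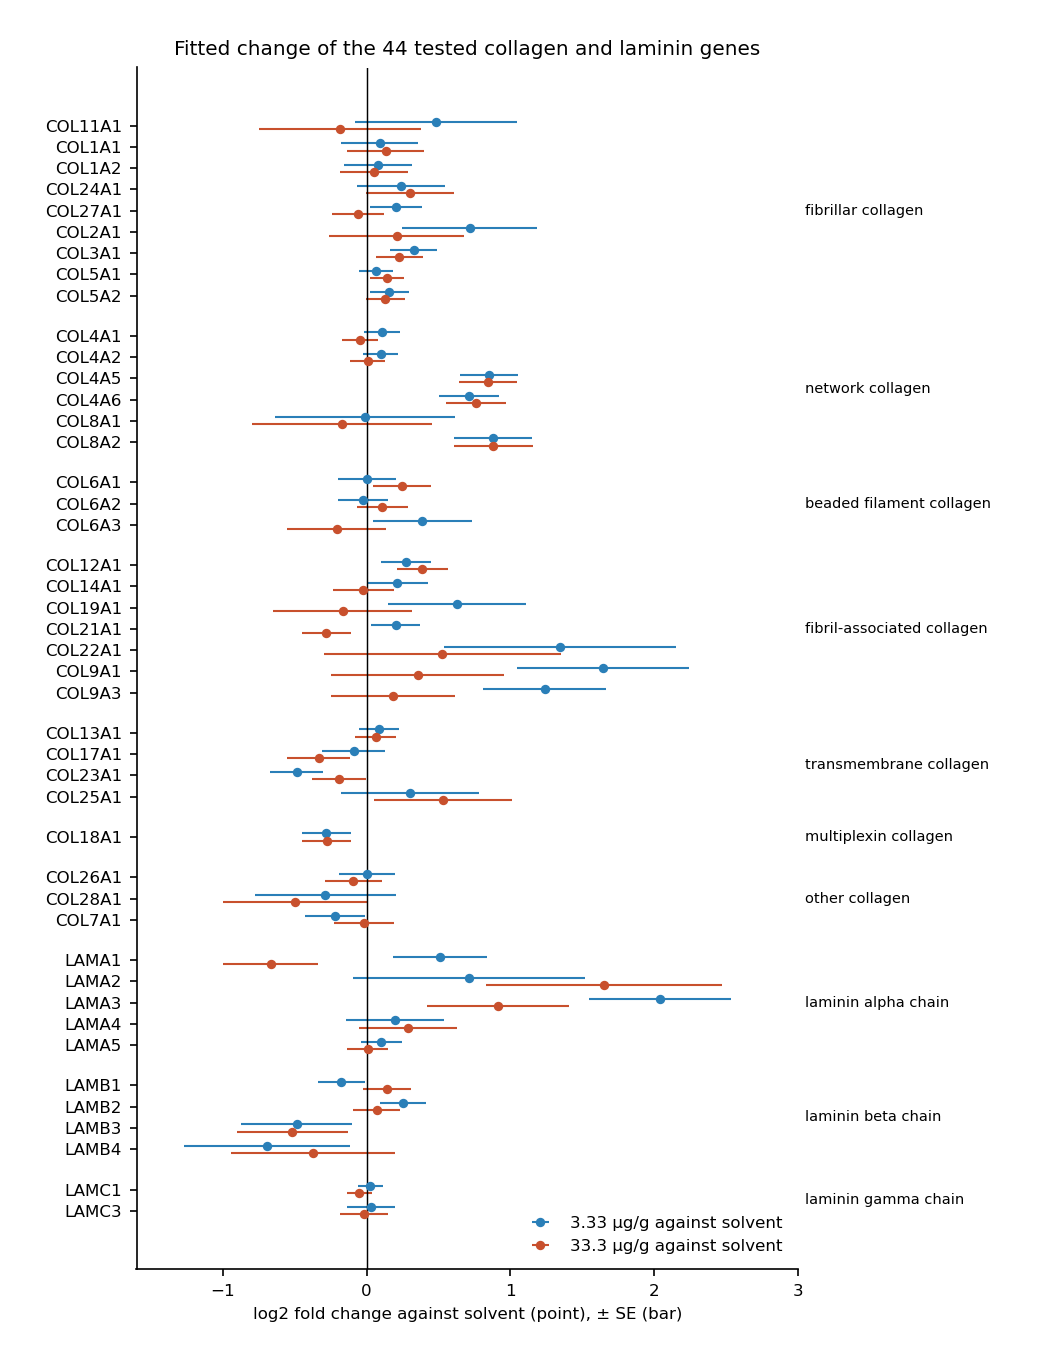
Fitted log2 fold change against solvent (x axis; points, with bars of ± 1 SE) of the 44 tested collagen and laminin genes, grouped by the kind of chain, at 3.33 µg/g (blue) and 33.3 µg/g (orange). Most points lie close to 0, and COL4A5, COL4A6 and COL8A2 lie near 0.8 at both doses. LAMA3 at 3.33 µg/g (2.04) and LAMA2 at 33.3 µg/g (1.65) lie farthest to the right, with wide bars. Next come COL9A1 (1.65), COL22A1 (1.34) and COL9A3 (1.24) at 3.33 µg/g, which were smaller without replicate 2 at that dose.

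Of the 6 tested network-forming collagens, COL4A5, COL4A6 and COL8A2 were the members of smallest p at 33.3 µg/g, and at 3.33 µg/g COL4A5 was first, with LAMA3 between it and the other two. Type IV collagen is made from 6 chain genes, which sit as neighbouring pairs: in the NCBI table COL4A1 lies next to COL4A2 and COL4A5 next to COL4A6, each with 0 genes between, and COL4A3 and COL4A4 have 1 gene between them. COL4A1 and COL4A2 encode the chains of nearly all basement membranes. In mammals COL4A5 joins either COL4A3 and COL4A4 or COL4A6, in the basement membranes of a smaller set of tissues.

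COL4A5 was at 56.3, 61.9, 77.0, 39.1 and 60.1 CPM in the solvent libraries, in the order of their replicate numbers. At 3.33 µg/g it was at 74.8, 121, 136, 104 and 95.6 CPM, and at 33.3 µg/g at 129, 123, 76.5, 78.9 and 121 CPM. In each treated group 4 of 5 libraries lay above all solvent libraries, and the last lay just below the highest of them. The mean was 58.9 ± 13.6 CPM with solvent, 106 ± 23.6 at 3.33 µg/g and 106 ± 25.7 at 33.3 µg/g. The fitted log2 fold change was 0.85 at 3.33 µg/g (SE 0.20, edgeR adjusted p = 0.0518) and 0.84 at 33.3 µg/g (SE 0.20, edgeR adjusted p = 0.0630), and neither passed the threshold. The adjusted p fell below the threshold when 1 of several libraries was left out, and its lowest value was 0.0388 at 33.3 µg/g (without replicate 4 of that dose) and 0.0263 at 3.33 µg/g (without replicate 1 of that dose).

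COL4A6 was at 27.5, 29.5, 34.8, 20.4 and 23.8 CPM with solvent. It was at 26.8, 52.9, 57.7, 42.3 and 43.2 CPM at 3.33 µg/g and at 50.1, 55.2, 36.2, 32.5 and 56.4 CPM at 33.3 µg/g. As for its neighbour, 4 of 5 libraries at each dose were above every solvent library, and the remaining libraries fell inside the solvent range. Its fitted change was 0.71 at 3.33 µg/g (SE 0.21, edgeR adjusted p = 0.107) and 0.76 at 33.3 µg/g (SE 0.21, edgeR adjusted p = 0.119). The difference between the doses was -0.01 for COL4A5 and 0.05 for COL4A6 on the log2 scale, with an SE of 0.20 and 0.21.

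The reads of COL4A5 were spread over 5 transcript entries, of which the entry with the most counts held 74.8%. That entry was at 28.5 to 57.9 CPM with solvent, 65.3 to 90.6 CPM at 3.33 µg/g and 65.4 to 93.8 CPM at 33.3 µg/g, so no treated library reached down to the solvent range. A further entry with 17% of the counts was at 0 to 6.64 CPM with solvent, 9.34 to 38.1 CPM at 3.33 µg/g and 6.73 to 31.9 CPM at 33.3 µg/g. An entry with 5.46% of the counts ran the other way, at 2.89 to 16.8 CPM with solvent, up to 2.74 CPM at 3.33 µg/g and 0.0897 to 24.6 CPM at 33.3 µg/g, where replicate 1 held the highest value. These entries share sequence, the counting method divides shared reads among them by estimate, and no test was run on single entries. They were looked at after the gene's values were seen.

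COL4A1 and COL4A2, the chains of the common type IV trimer, had group means close together. COL4A1 was at 160, 117, 150, 147 and 126 CPM in the solvent libraries, 140, 166, 169, 128 and 150 CPM at 3.33 µg/g, and 139, 128, 101, 162 and 147 CPM at 33.3 µg/g. Its ranges overlapped throughout, and the fitted log2 fold change was 0.11 at 3.33 µg/g and -0.04 at 33.3 µg/g (SE 0.13 at both, edgeR adjusted p = 0.759 and 0.953). COL4A2 had 69.4 ± 8.79 CPM with solvent, 74.3 ± 8.11 at 3.33 µg/g and 69.7 ± 12.3 at 33.3 µg/g. Its fitted change was 0.10 and 0.01 (SE 0.12 at both, edgeR adjusted p = 0.767 and 0.993). COL4A3 and COL4A4, with COL4A5 the chains of the kidney filter membrane in mammals, were almost unread, with 36 and 68 counts summed over the 15 libraries.

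**Figure D2:**
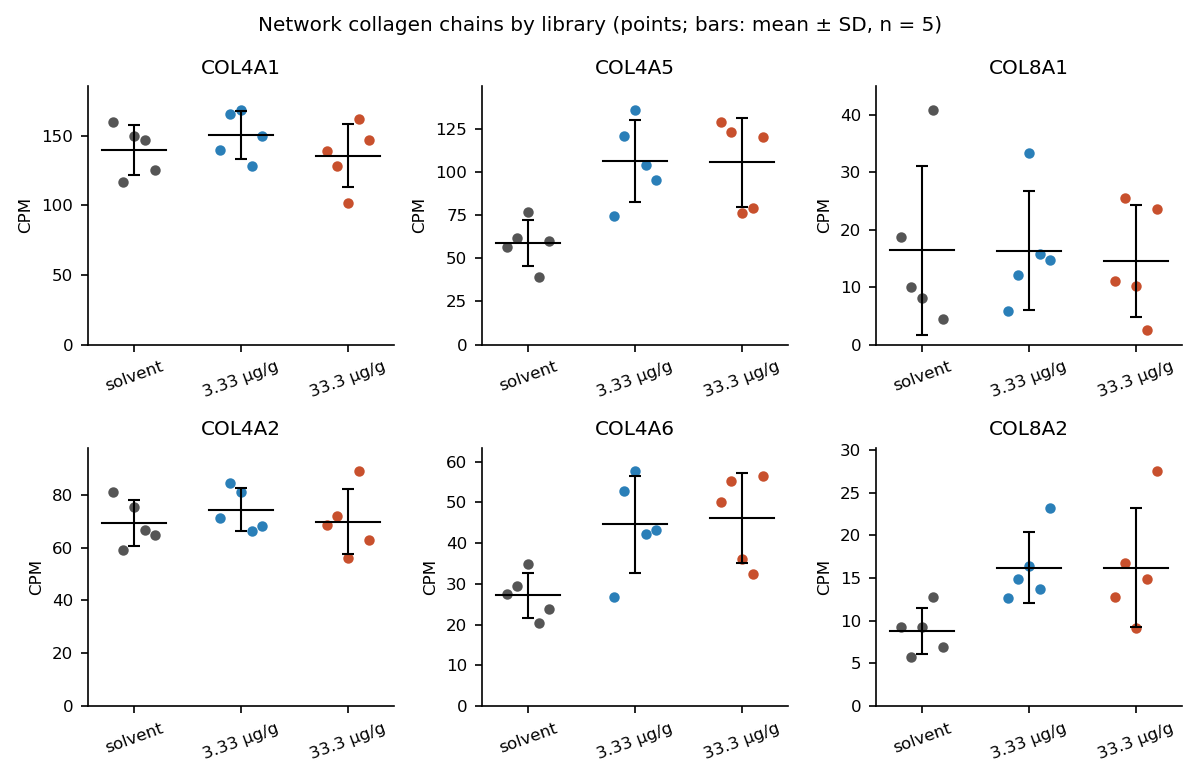
CPM (y axis, from 0) of 6 network collagen genes in each library (points), with the mean and SD of each group of 5 (black bars). For COL4A5 and COL4A6, 4 of 5 libraries at each dose lie above every solvent library, whereas most libraries of COL4A1, COL4A2 and COL8A1 lie inside the solvent range.

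The type VIII chains form the open lattice under vessel endothelium and under the corneal endothelium. COL8A2 was at 9.29, 5.75, 9.27, 12.7 and 6.95 CPM in the solvent libraries, 12.7, 14.8, 16.5, 13.7 and 23.2 CPM at 3.33 µg/g, and 12.8, 16.8, 9.13, 14.9 and 27.5 CPM at 33.3 µg/g. At each dose 4 of 5 libraries were above every solvent library. The fitted log2 fold change was 0.88 at both doses (SE 0.27 at both, edgeR adjusted p = 0.134 at 3.33 µg/g and 0.195 at 33.3 µg/g), and leaving out each library in turn gave 0.71 to 1.05 at the low dose and 0.61 to 1.05 at the high dose. COL8A1, its sister chain, ran from 4.41 to 40.9 CPM within the solvent group alone, with group means of 16.4 ± 14.7, 16.3 ± 10.3 and 14.6 ± 9.72 CPM. COL10A1, the chain of hypertrophic cartilage, was not tested, with 369 counts in all, and is taken up with the cartilage chains.

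Among the fibrillar collagens, the within-group SD on the log2 scale ran from 0.19 for COL5A1 to 1.06 for COL11A1, and that of COL1A1 was 0.47. COL1A1 and COL1A2 build type I collagen, the main fibre of connective tissue. COL1A1 was at 600, 369, 703, 645 and 338 CPM in the solvent libraries, 648, 912, 441, 341 and 487 CPM at 3.33 µg/g, and 745, 653, 555, 394 and 564 CPM at 33.3 µg/g. The groups overlapped, and the highest library of all was replicate 2 at 3.33 µg/g. On the log2 scale the fitted change was 0.09 at 3.33 µg/g and 0.13 at 33.3 µg/g (SE 0.27 at both), and without that library the low-dose change was -0.15. COL1A2 ran in step with it, from 278 to 466 CPM with solvent, 250 to 642 CPM at 3.33 µg/g and 276 to 537 CPM at 33.3 µg/g.

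COL3A1, the chain of the fine reticular fibres that carry the liver parenchyma, had 467 ± 100 CPM with solvent, 587 ± 119 at 3.33 µg/g and 547 ± 79.6 at 33.3 µg/g. Its fitted log2 fold change of 0.33 at 3.33 µg/g (SE 0.16, edgeR adjusted p = 0.372) was the one of smallest p among the 9 tested fibrillar genes, and it was 0.21 without replicate 2 at that dose. COL5A1 and COL5A2, whose type V fibrils start and limit the thicker type I fibres, had changes of 0.07 and 0.16 at 3.33 µg/g and of 0.14 and 0.13 at 33.3 µg/g. All 9 fibrillar genes had a fitted change above 0 at 3.33 µg/g (median 0.21) and 7 of 9 at 33.3 µg/g (median 0.13), and 0 of 9 had an unadjusted p under 0.05 at either dose. Replicate 2 at 3.33 µg/g was the highest of the 15 libraries for 7 of the 9, and without it 5 of 9 were above 0 at that dose (median 0.05). COL1A1, COL1A2 (-0.14), COL2A1 (from 0.72 to -0.25) and COL5A1 (-0.03) then lay below 0, and COL5A2 was at 0.05. COL24A1 and COL27A1, minor fibrillar chains, were at 7.82 ± 4.31 and 12.4 ± 2.93 CPM with solvent, with changes of 0.30 and -0.06 at 33.3 µg/g.

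Type VI collagen forms beaded microfilaments beside the cell surface from COL6A1, COL6A2 and COL6A3. COL6A1 was at 28.8 ± 7.29 CPM with solvent, 28.9 ± 5.52 at 3.33 µg/g and 34.2 ± 9.45 at 33.3 µg/g. COL6A2 was at 20.2 ± 4.36, 19.8 ± 3.96 and 21.7 ± 4.27 CPM. COL6A3 was at 5.98 ± 2.32, 7.81 ± 2.82 and 5.16 ± 1.86 CPM, and none of the 3 genes had an unadjusted p under 0.05. The low-dose change of COL6A3 was 0.39, and 0.24 without replicate 2 at 3.33 µg/g, its highest library. COL6A6 was close to unread: it had 3 counts in all, 0 of them in the solvent libraries.

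The fibril-associated collagens sit on the surface of fibres and link them to other matrix. COL12A1, which decorates type I fibrils, had 23.6 ± 3.97 CPM with solvent, 28.5 ± 6.12 at 3.33 µg/g and 30.9 ± 7.12 at 33.3 µg/g. Its fitted log2 fold change at 33.3 µg/g was 0.39 (SE 0.18, edgeR adjusted p = 0.444), and it is the only member outside the network collagens with an unadjusted p under 0.05 in that comparison. COL12A1 was highest in replicate 2 at 3.33 µg/g, at 38.2 CPM, and its low-dose change of 0.28 was 0.15 without that library. COL14A1, its close relative, was at 77.7 ± 16.9, 90.2 ± 12.3 and 76.5 ± 26.4 CPM. COL21A1 had 11 ± 2.67 CPM with solvent, 12.7 ± 2.61 at 3.33 µg/g and 9.10 ± 0.978 at 33.3 µg/g, a difference of -0.48 between the doses (SE 0.17, edgeR adjusted p = 0.841), and its low-dose change of 0.20 was 0.11 without replicate 2 at 3.33 µg/g.

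Several chains of cartilage type stood high in 1 library. COL2A1, the fibre of cartilage, was at 67.3 CPM in replicate 2 at 3.33 µg/g and at 8.97 to 21.3 CPM in the other 14 libraries. COL9A1 and COL9A3, which coat the type II fibre, were at 5.88 and 5.32 CPM there, against 0.315 to 2.03 CPM and 0.588 to 1.44 CPM elsewhere. COL10A1 was at 7.62 CPM there and at 0.0310 to 0.661 CPM elsewhere, so that 285 of its 369 counts came from this library. COL11A1, the partner of COL2A1 inside the fibre, was at 25.9 CPM against 1.16 to 15.9 CPM.

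The same library was the highest of the 15 for COL19A1 (29.8 CPM against 3.66 to 20.8 CPM), a chain first known from muscle tumour cells, and for COL22A1 (1.84 CPM against 0.0374 to 0.793 CPM), a chain of the junction between muscle and tendon. COL9A1 and COL19A1 are adjacent in the NCBI table. Of the 10 cartilage markers in the table, 4 were highest in this library. Among these, MATN1 was at 8.58 CPM there and at 0 to 0.0475 CPM elsewhere. ACAN was at 5.96 against 0.567 to 1.68 CPM, and HAPLN1 at 8.85 against 0.846 to 4.19 CPM. Among the markers not highest there, CNMD was at 6.47 CPM, against 19.3 CPM in solvent replicate 5. MATN3 was at 0.641 CPM there, against 1.42 CPM in replicate 1 at 33.3 µg/g. The 10 cartilage markers in the table (of 11 listed) summed to 32.8 CPM in this library and 5.23 to 23.6 CPM in the other 14. By group the sums were 7.69 to 23.6 CPM with solvent, 5.23 to 32.8 CPM at 3.33 µg/g and 6.57 to 11.6 CPM at 33.3 µg/g. Muscle markers (11 of 12) summed to 108 CPM in this library and 35.9 to 78.5 CPM in the others, and none of the cartilage or muscle markers was at 0 there. Of the 5 cartilage markers with enough counts to be tested, 1 passed, at 33.3 µg/g, where 1.08% of all tested genes did. This was MATN3, a cartilage matrix protein, which rose from 0.177 ± 0.0587 to 0.686 ± 0.434 CPM (1.94 on the log2 scale, SE 0.42, edgeR adjusted p = 0.0345). The call ended in 12 of 23 alternatives (highest edgeR adjusted p 0.109, without solvent replicate 1). What part such tissue had in the members' values was not tested.

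**Figure D3:**
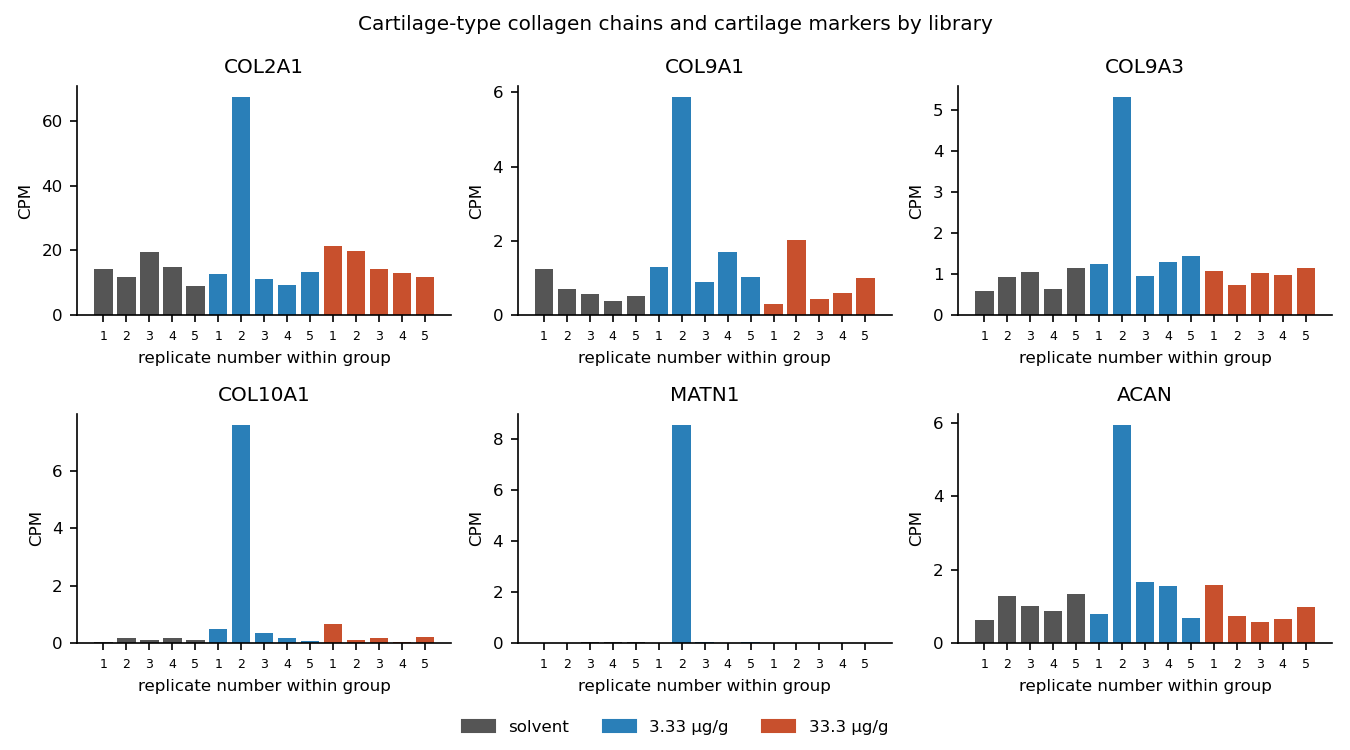
CPM (y axis, linear from 0) of 4 cartilage-type collagen genes and of the cartilage markers MATN1 and ACAN in each of the 15 libraries (bars, coloured by group, with the replicate number below). In all 6 panels replicate 2 at 3.33 µg/g is the tallest bar, at 67.3 CPM for COL2A1 and 8.58 CPM for MATN1. The 2 markers were picked after their values were seen, from the 4 of 10 cartilage markers that were highest in this library.

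The type IX values at the low dose rested in part on that library. For COL9A3, the fitted log2 fold change at 3.33 µg/g against solvent was 1.24 (SE 0.43, edgeR adjusted p = 0.174), and without replicate 2 at 3.33 µg/g it was 0.50 (edgeR adjusted p = 0.404). The solvent libraries were at 0.588, 0.923, 1.05, 0.650 and 1.16 CPM and those at 3.33 µg/g at 1.24, 5.32, 0.946, 1.29 and 1.44 CPM. In this gene 4 of the 5 libraries at the low dose were above every solvent library. COL9A1 had a change of 1.65 (SE 0.60, edgeR adjusted p = 0.201), which was 0.83 without this library (edgeR adjusted p = 0.483). For COL19A1 the low-dose change went from 0.63 to 0.05, for COL22A1 from 1.34 to 0.36 and for COL11A1 from 0.48 to 0.17 when this library was left out. The comparison between the doses gave -1.06 for COL9A3 and -1.29 for COL9A1 with this library, and -0.32 and -0.47 without it.

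The transmembrane collagens are shed from the cell surface or act there as adhesion proteins. COL23A1 was at 33.0, 31.8, 43.6, 33.4 and 38.7 CPM in the solvent libraries, 30.5, 37.0, 22.3, 16.8 and 22.1 CPM at 3.33 µg/g, and 38.6, 27.7, 26.5, 27.5 and 37.8 CPM at 33.3 µg/g. At 3.33 µg/g, 4 of 5 libraries were below every solvent library. It was the only member that was lower than solvent with an unadjusted p under 0.05, at a log2 fold change of -0.49 (SE 0.19, edgeR adjusted p = 0.228), and at 33.3 µg/g the change was -0.19 (SE 0.19). COL13A1 was at 26.6 ± 5.58, 28.2 ± 4.88 and 27.7 ± 1.39 CPM in the 3 groups, COL17A1 at 2.34 ± 0.638, 2.19 ± 0.495 and 1.86 ± 0.237 CPM, and COL25A1 at 1.06 ± 0.443, 1.31 ± 0.712 and 1.53 ± 0.811 CPM.

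COL18A1, the source of endostatin and a proteoglycan of liver basement membranes, had 235 ± 42.9 CPM with solvent, 194 ± 48.9 at 3.33 µg/g and 194 ± 17.4 at 33.3 µg/g. The fitted log2 fold change was -0.28 at both doses (SE 0.17 at both, edgeR adjusted p = 0.477 and 0.624). COL7A1, the anchoring fibril of skin, COL26A1 and COL28A1 had changes of -0.02, -0.09 and -0.50 at 33.3 µg/g, none with an unadjusted p under 0.05. COL26A1 was read well, with 119 ± 27.3 CPM in the solvent group, 120 ± 36.0 at the low dose and 112 ± 18.2 at the high dose. COL20A1 was not tested, with 159 counts in all.

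Among the chains of the most widespread laminins, LAMC1 and LAMA5 had group means close together. LAMC1, the gamma chain of most laminins, was at 136, 128, 149, 112 and 128 CPM in the solvent libraries, 131, 140, 132, 125 and 137 CPM at 3.33 µg/g, and 143, 128, 115, 131 and 114 CPM at 33.3 µg/g. It had the smallest spread within groups of the 44 tested members, an SD of 0.12 on the log2 scale, where the members' median was 0.34 and that of all 14508 tested genes was 0.25. LAMB1, the usual beta partner, was at 325 ± 58.6, 287 ± 76.3 and 358 ± 17.9 CPM in the solvent, 3.33 and 33.3 µg/g groups. Its fitted log2 fold change was -0.18 at 3.33 µg/g and 0.14 at 33.3 µg/g (SE 0.17 at both). The difference between the doses was 0.32 (SE 0.17, edgeR adjusted p = 0.947). LAMA5, the alpha chain of adult and vascular basement membranes, was at 65.7 ± 7.74, 70.5 ± 7.96 and 66.0 ± 15.2 CPM.

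LAMC3 (12.1 ± 2.41 CPM with solvent), LAMB2 (5.78 ± 1.22 CPM) and LAMA4 (3.63 ± 1.11 CPM), the alpha chain of small vessels, had fitted changes of between -0.02 and 0.29 at both doses. LAMA4 was highest in replicate 2 at 3.33 µg/g, at 7.72 CPM against 2.17 to 6.86 CPM elsewhere, and without that library its low-dose change went from 0.20 to -0.15. LAMB2 was highest there too, and its low-dose change went from 0.25 to 0.16. LAMB3 and LAMB4 were low. LAMB3, a chain of the laminin under stratified epithelia, had 0.768 ± 0.405 CPM with solvent, and LAMB4 had 0.657 ± 0.329.

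By the within-group SD of log2 CPM with 0.5 added, LAMA2, LAMA3, LAMA4 and LAMA1 ranked highest among the 11 tested laminins, whereas LAMA5 did not stand out. The added 0.5 narrows the spread of genes near that level, so the ranking depends on it. From lowest to highest of the 15 libraries, LAMB4 ran over 12.5-fold, against 3.56-fold for LAMA4 and 5.73-fold for LAMA1. LAMA2, the alpha chain of muscle basement membrane, was at 14.3, 7.82, 11.6, 4.59 and 7.96 CPM in the solvent libraries, 6.96, 9.09, 5.29, 4.02 and 50.2 CPM at 3.33 µg/g, and 2.14, 41.6, 50.2, 4.94 and 47.0 CPM at 33.3 µg/g. Its 15 values formed separate sets: 4 libraries at 41.6 to 50.2 CPM, 3 of them at 33.3 µg/g and 1 at 3.33 µg/g, and 11 libraries at 2.14 to 14.3 CPM. Both of the 2 transcript entries that carry 68.3% and 31.3% of its counts were high in the same 4 libraries. The fitted log2 fold change at 33.3 µg/g was 1.65 (SE 0.82, edgeR adjusted p = 0.494), and limma-voom gave 0.86. The within-group SD of LAMA2 was 1.45 on the log2 scale with 0.5 added, the widest of the members on that scale. Replicate 2 at 3.33 µg/g, the library high in muscle markers, was at 9.09 CPM. What part muscle tissue had in the LAMA2 values was not tested.

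LAMA3, the alpha chain of the laminin under epithelia, was at 0.526, 0.527, 0.523, 0.736 and 0.523 CPM in the solvent libraries, 0.925, 1.28, 3.35, 5.31 and 0.935 CPM at 3.33 µg/g, and 1.79, 1.12, 0.733, 0.564 and 1.14 CPM at 33.3 µg/g. It was the only member whose 5 libraries at 1 dose all lay above every solvent library, at 3.33 µg/g, where 2.3% of all tested genes did so. At 33.3 µg/g, 0 members were separated in this way, against 1.84% of all genes. The fitted log2 fold change was 2.04 at 3.33 µg/g (SE 0.49, edgeR adjusted p = 0.0533) and 0.92 at 33.3 µg/g (SE 0.49, edgeR adjusted p = 0.544). Without replicate 4 at 3.33 µg/g, its highest library, the low-dose change was 1.5 (edgeR adjusted p = 0.129).

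The 3 libraries highest in LAMA3 were also the 3 highest in SOX9 and SPP1, which bile duct cells express. SOX9 was at 10.2 and 42.2 CPM in replicates 3 and 4 at 3.33 µg/g and at 11.2 CPM in replicate 1 at 33.3 µg/g, and at 1.53 to 4.48 CPM in the other 12. SPP1 was at 62.3, 83.0 and 66.9 CPM in those libraries and at 8.94 to 23.9 CPM in the others. EPCAM, another biliary marker, was at 140, 94.7 and 74.7 CPM in those libraries and at 105 to 230 CPM in the others. The 7 biliary markers in the table (of 9 listed) did not follow as a sum, which was 249 to 354 CPM with solvent, 201 to 320 CPM at 3.33 µg/g and 197 to 278 CPM at 33.3 µg/g. In the same 3 libraries the sum was 303, 320 and 226 CPM. Replicate 4 at 3.33 µg/g and replicate 1 at 33.3 µg/g are also the libraries of low albumin share, and without both the low-dose change of LAMA3 was 1.5 (edgeR adjusted p = 0.105). The part of these cells or libraries in the LAMA3 values was not tested.

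**Figure D4:**
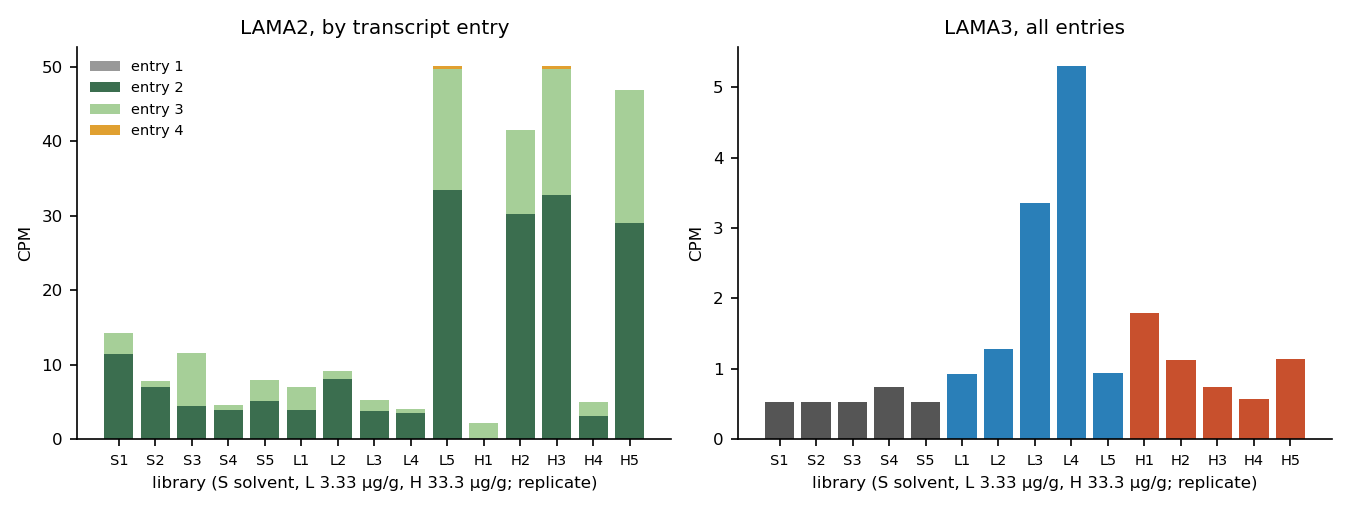
CPM (y axes, from 0) of LAMA2, stacked by transcript entry, and of LAMA3 in each of the 15 libraries (bars; S solvent, L 3.33 µg/g, H 33.3 µg/g, with the replicate number). LAMA2 is at 41.6 to 50.2 CPM in 4 libraries and at most 14.3 CPM in the others, and LAMA3 is highest in replicates 3 and 4 at 3.33 µg/g.

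LAMA1, the alpha chain of the earliest embryonic basement membranes, had the smallest p of the members between the doses. It was at 6.29, 2.86, 5.37, 1.91 and 4.52 CPM in the solvent libraries, 4.51, 10.9, 4.64, 3.83 and 5.89 CPM at 3.33 µg/g, and 3.15, 3.18, 2.0, 2.36 and 2.49 CPM at 33.3 µg/g. All 5 libraries at 33.3 µg/g were below all 5 at 3.33 µg/g, a separation that 0.345% of all tested genes showed, while the solvent libraries overlapped both groups. The difference was -1.18 (SE 0.33, edgeR adjusted p = 0.823), and -0.84 without replicate 2 at 3.33 µg/g. Against solvent the low-dose change of LAMA1 was 0.51, and 0.17 without that library.

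Chains that assemble into 1 molecule, or that belong to the same kind of matrix, were compared across the 15 libraries. Each group's mean was taken away first, on the log2 CPM scale. Of 17 pairs listed, 14 had both genes tested. Among the 14, COL1A1 with COL3A1 (both fibrillar) and COL4A1 with LAMC1 (both of basement membranes) do not share a trimer. The p-values of the 14 pairs come from a permutation test within groups (100000 resamples, two-sided, Benjamini-Hochberg adjustment over the 14). COL1A1 and COL1A2 ran most closely together (r = 0.99, permutation adjusted p = 0.00014, Spearman rho 0.99). The unadjusted permutation p of this pair, 1e-05, was the smallest that 100000 resamples can give. Next were COL4A5 and COL4A6 (r = 0.93, permutation adjusted p = 0.00091, rho 0.92), then COL4A1 and COL4A2 (r = 0.84, permutation adjusted p = 0.00392, rho 0.85). Leaving out the 2 libraries farthest from the median of the first gene gave r = 0.98, 0.92 and 0.75 for these pairs.

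Type VI chains had r of 0.78 to 0.84 and COL5A1 with COL5A2 had 0.83 (permutation adjusted p = 0.00398), although the rho of that pair was 0.62 (permutation adjusted p = 0.0615). Over all 946 pairs of tested members the median r was 0.26. Genes read in the same library share its depth and cell make-up, and the part of these in r was not tested. Both type IV pairs and the pair COL6A1 and COL6A2 are also neighbours on the chromosome, whereas COL1A1 and COL1A2 are not among the neighbouring members.

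The laminin pairs ran from r = 0.10 to 0.73. Each of them held LAMC1, so they are not separate observations of laminin partners. LAMC1 also had the smallest within-group spread of the tested members (SD 0.12 on the log2 scale). The part of that small spread in these r was not tested. LAMB1 and LAMC1, the beta and gamma chains of the most widespread laminins, had r = 0.10 (permutation adjusted p = 0.703, rho 0.12), and LAMA4 and LAMC1 had 0.22 (permutation adjusted p = 0.496). LAMA1 and LAMC1 had r = 0.73 (permutation adjusted p = 0.00392, rho 0.77, and 0.65 without the 2 farthest libraries). LAMA5 and LAMC1 had r = 0.52 (permutation adjusted p = 0.140). COL9A1 and COL9A3 had r = 0.44 (permutation adjusted p = 0.259), which was 0.06 without the 2 farthest libraries, of which replicate 2 at 3.33 µg/g was 1.

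**Figure D5:**
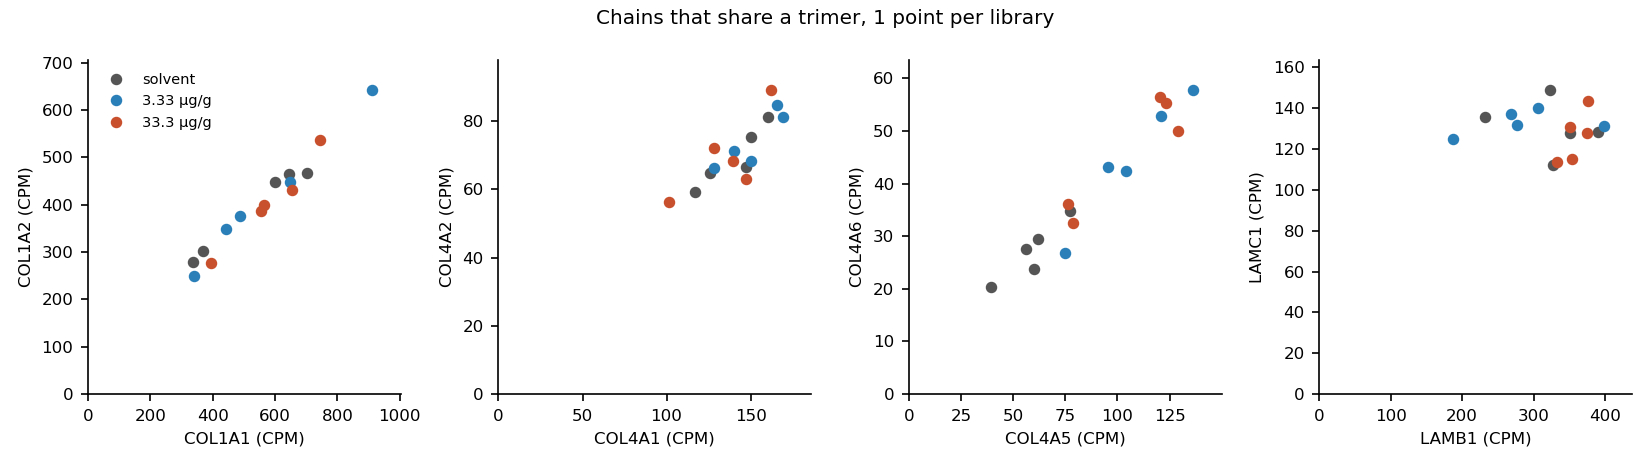
CPM of both chains of 4 pairs (x and y axes, from 0), 1 point per library, coloured by group. The points of COL1A1 and COL1A2 and of COL4A5 and COL4A6 lie along a line (r = 0.99 and 0.93 after removal of group means), and those of LAMB1 and LAMC1 scatter (r = 0.10).

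By the measure of likeness, the correlation of these residuals over the 15 libraries, the member most like COL4A5 was COL4A6, and the member most like COL8A2 was COL4A1 (r = 0.63). LAMA3 was most like COL8A1 (r = 0.52) and LAMA2 most like COL21A1 (r = 0.54), both weak. LAMA1 was most like COL21A1 (r = 0.85). Each of these r is the largest of a member with any other tested member, so it runs high by selection, and no test was run on it.

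Genes that make, bind or cut the matrix were counted from lists chosen by function, with earlier results of these data known. Of 28 tested genes of collagen folding and crosslinking, 0 passed at either dose. Their median change was 0.14 at 3.33 µg/g and 0.17 at 33.3 µg/g, beside a median of 0.00 over all tested genes at both doses, and by unadjusted p under 0.05, 8 were higher and 1 lower at 33.3 µg/g, where 5.96% of all tested genes were higher and 4.79% lower. At 3.33 µg/g, 5 were higher and 1 lower, where 8.2% of all tested genes were higher and 6.42% lower. P3H1, a prolyl hydroxylase that modifies collagen chains, had 39.7 ± 3.29 CPM with solvent and 55.6 ± 8.73 at 3.33 µg/g (0.48, SE 0.12, edgeR adjusted p = 0.0548). Of 20 basement membrane partners, 30 other matrix glycoproteins and proteoglycans and 15 genes of the TGF-beta axis, 0 passed at either dose by edgeR.

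Among 20 receptors for collagen and laminin, 1 passed, at 3.33 µg/g, where 1.38% of all tested genes did. SDC2, a cell surface proteoglycan that binds matrix, was at 228, 200, 195, 237 and 195 CPM with solvent and at 363, 362, 399, 429 and 325 CPM at 3.33 µg/g, with every library above every solvent library. It rose by 0.83 on the log2 scale (SE 0.13, edgeR adjusted p = 0.00239). At 33.3 µg/g it was at 303 ± 59.6 CPM (0.52, SE 0.12, edgeR adjusted p = 0.0630). ITGB1, the common beta chain of the integrins that bind both proteins, had 320 ± 32.4 CPM with solvent and 236 ± 33.1 at 33.3 µg/g (-0.44, SE 0.10, edgeR adjusted p = 0.0612).

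Of 16 matrix proteases and their inhibitors, 1 passed, at 33.3 µg/g, where 1.08% of all tested genes did. TIMP2, an inhibitor of matrix metalloproteinases, was at 63.9, 67.3, 52.2, 74.3 and 64.2 CPM with solvent and at 106, 189, 112, 72.9 and 170 CPM at 33.3 µg/g. It rose by 1.01 (SE 0.21, edgeR adjusted p = 0.0226), with 4 of 5 libraries above every solvent library, and was at 112 ± 14.8 CPM at 3.33 µg/g (0.80, SE 0.21, edgeR adjusted p = 0.0679). The call at 33.3 µg/g ended in the fit to the 2 groups alone (edgeR adjusted p = 0.0694), in the fit with a replicate block (0.0775) and in 6 of the fits that left out 1 library, in which it reached 0.0693.

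Markers of the cells that line and support the liver's matrix were summed per library, from lists also made with earlier results known. The 13 stellate cell and fibroblast markers, all in the table, summed to 751 to 1241 CPM with solvent, 779 to 1279 CPM at 3.33 µg/g and 666 to 1014 CPM at 33.3 µg/g. Of them, 1 passed, at 3.33 µg/g, where 1.38% of all tested genes did. This was HGF, the growth factor these cells send to hepatocytes, which rose (27.6 ± 4.68 to 47.0 ± 6.85 CPM, 0.77 on the log2 scale, SE 0.14, edgeR adjusted p = 0.00862). At 33.3 µg/g HGF was at 26.6 to 40.9 CPM, which overlapped the solvent range of 22.7 to 34.4 CPM. Of the 13 markers, 7 were above 0 and 6 below at 3.33 µg/g, where 50.8% of all tested genes were above 0. By unadjusted p under 0.05, 1 of the 13 was called, against a background of 14.6%. The 13 endothelial markers summed to 517 to 626 CPM with solvent, 523 to 746 CPM at 3.33 µg/g and 486 to 572 CPM at 33.3 µg/g. The mesothelial markers (6 of 9 in the table) summed to 41.0 to 77.8, 30.1 to 62.0 and 33.3 to 57.0 CPM in the same order. The macrophage markers (6 of 8 in the table) summed to 137 to 164 CPM with solvent, 181 to 252 CPM at 3.33 µg/g and 133 to 208 CPM at 33.3 µg/g, so that every library at the low dose was above every solvent library. Of these 6 genes, 4 had an unadjusted p under 0.05 at 3.33 µg/g, all higher, where 8.2% of all tested genes were higher. By adjusted p 1 passed, where 1.38% of all tested genes did. This was C1QB, a chain of complement C1q that macrophages make, which rose by 0.87 (8.16 ± 1.65 to 14.9 ± 4.02 CPM, SE 0.18, edgeR adjusted p = 0.0234). That call ended in 5 of 25 alternatives: the replicate block (edgeR adjusted p = 0.0701), the fit to the 2 groups alone, and without solvent replicate 2, solvent replicate 5 or replicate 3 at 3.33 µg/g. Of the 11 hepatocyte markers, 3 passed at 33.3 µg/g (1 higher and 2 lower), where 1.08% of all tested genes did. At 3.33 µg/g 1 passed, where 1.38% did: APOB, which rose by 1.72 (edgeR adjusted p = 2.5e-05). At 33.3 µg/g 2 of the 11 were above 0 (median -0.26), where 50% of all tested genes were. At 3.33 µg/g 2 were (median -0.39), where 50.8% were. What part these cells had in the members' values was not tested.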

How the data were processed

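RNA of the left liver lobe was measured by sequencing in 15 libraries, 5 in each of 3 groups, as the labels assign them. The authors quantified the reads with kallisto, per the submitters' processing notes, and deposited a table of estimated counts (expected counts) for 47418 transcript entries, each named by an NCBI gene ID, with no normalization. Which kallisto version, index and genome build they used is not given in the sources.

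Entries of the same gene ID were added up and the sums rounded, giving 20308 gene IDs, of which 18900 (93.1%) matched the NCBI gene table for the Coturnix japonica reference. That table gave the symbols and the order of genes. Its assembly may differ from the one behind the index, so no coordinates are given, and sequences and transcript lengths were not used here, so levels are not compared between genes. edgeR 4.0.16 in R 4.3.3 was run with filterByExpr by group, TMM factors and the robust quasi-likelihood F-test on all 15 libraries in 1 model of group. This left 14508 tested genes (common biological coefficient of variation 0.263). Two-sided p-values were Benjamini-Hochberg adjusted, with a threshold of 0.05, and the SE of a log2 fold change is its size over the square root of F. CPM are counts per library on TMM-scaled totals of 1e+06, summarised as mean ± SD. Low counts limit the precision of members near or under 1 CPM.

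Correlations between partner chains used log2 CPM with a prior count of 2. Within-group SDs on the log2 scale used CPM with 0.5 added. Members and gene lists were chosen with earlier results of these data known, so no p is adjusted over a list alone. Genes could be named if they passed in any comparison or belonged to a listed pair. The 5 members of smallest p in a comparison could be named too. From the pathway lists, genes could be named if they passed or were among the 2 of smallest p against solvent. Of the pathway genes that met this rule, only P3H1, SDC2, ITGB1 and TIMP2 are described. Those left out did not pass and changed in both directions, such as PAPLN (-0.78 at 33.3 µg/g) and TNC (0.63 at 3.33 µg/g). A further part of that rule, by level per coding length, could not be applied. The values of 1 untested member are not reported here. Other members are described because they are members, and cell type markers because they were listed. SOX9, SPP1, EPCAM, MATN1, MATN3, ACAN, HAPLN1, CNMD and C1QB were singled out from their lists after their values were seen. Alternatives were RLE factors, library totals, 2 other filters, DESeq2 1.42.0, limma-voom (limma 3.58.1), a replicate block, a fit to 2 groups, an adjusted p under 0.1, and libraries left out. The pipeline was tested on simulated data. No 2 replicates were copies: chi-square over degrees of freedom was at least 27.9 in the 30 pairs.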

Additional observations from a re-analysis of the deposited data

Results flagged for a closer look

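The groups of 5 libraries of the 44 tested members, 132 in all, were screened for a single library far from the other 4. Dixon's criterion was used on CPM, with a critical value of 0.71. Chance meets it in about 1 group in 20 where values are normally distributed. Whether CPM are so distributed was not tested, so no excess over that rate is read here. The criterion was met 11 times, 5 of them in replicate 2 at 3.33 µg/g. In that library COL2A1 was at 67.3 CPM, COL9A1 at 5.88, COL9A3 at 5.32, COL19A1 at 29.8 and LAMA4 at 7.72, each above the rest of its group.

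The other 6 were spread over other libraries. COL19A1 was high in replicate 3 of the solvent group, at 20.8 CPM. LAMA3 was high in solvent replicate 4, at 0.736 CPM, but this stood for 17 counts, as many as in solvent replicate 1 (0.526 CPM). LAMA2 was high in replicate 5 at 3.33 µg/g, at 50.2 CPM. COL5A1 was high in replicate 1 at 33.3 µg/g, at 195 CPM. The low values were COL17A1 in replicate 3 at 33.3 µg/g, at 1.43 CPM, and LAMB3 in replicate 4 at 3.33 µg/g, at 0.265 CPM.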

How the results depend on the processing

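Each comparison was recomputed under 25 alternatives. Between the doses, 0 members passed in all 25. At 33.3 µg/g against solvent the count of 0 members became 2 with DESeq2 (COL4A5 and COL4A6) and 1 at an adjusted p under 0.1 (COL4A5), and it was 0 to 1 when each library was left out. At 3.33 µg/g it became 1 with a filter of 1 CPM in 5 libraries, 4 with DESeq2 and 2 at an adjusted p under 0.1, and it was 0 to 3 over the left-out libraries. The cause was not tested. The log2 fold changes of the 5 members of smallest p in each comparison kept their sign throughout. Of all 44 tested members, 28 kept their sign under every alternative at 33.3 µg/g, 30 at 3.33 µg/g and 22 between the doses, and those that turned were at most 0.36, 0.72 and 0.82 in size.

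Over all genes, the 157 passing at 33.3 µg/g became 386 with DESeq2, 101 with the replicate block and 248 at an adjusted p under 0.1, with 93 to 194 over the left-out libraries. The 200 passing at 3.33 µg/g became 656, 117 and 469, with 111 to 264. Between the doses 0 became 19 with DESeq2 and 2 at an adjusted p under 0.1. Libraries of the same replicate number were also compared between groups, over all tested genes, after each gene's group mean was taken away from log2 CPM. The correlations of these residuals were -0.22 to 0.12, and 1 of 15 such pairs was over 0.1. Pairs of unlike number were not set beside them, so this does not decide whether replicate numbers pair the libraries. With the replicate block 0 members passed.

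Among the chain pairs, LAMB1 and LAMC1 turned from r = 0.10 to -0.061 with no group mean removed and to -0.16 without both libraries of low albumin share, with -0.080 to 0.22 over the left-out libraries, and LAMA4 and LAMC1 to -0.085 without both libraries of low albumin share. With no group mean removed, COL9A1 and COL9A3 (0.63), LAMA5 and LAMC1 (0.54) and COL1A1 and COL3A1 (0.55) passed, as did LAMA5 and LAMC1 with library totals only (0.70). Over the left-out libraries COL9A1 and COL9A3 ran from -0.36 to 0.65 and COL1A1 and COL3A1 from 0.43 to 0.76. Genes of few counts are limited by depth: LAMA3, LAMB3, LAMB4, COL9A1, COL9A3, COL28A1 and COL22A1 had solvent means under 1 CPM.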
